A study of Mus musculus with 5 samples.

Results

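The regions described here are 429 promoter peaks of H3K4me3, trimethylation of lysine 4 on histone H3, that were listed in Cxxc1-deficient double-positive (DP) thymocytes at places where no wild-type (WT) peak was listed. A peak is a run of enriched 200-bp windows in which at most 2 windows are missing. The 429 peaks were chosen by 4 criteria: an autosomal position, a summed strength of at most 10 RPM (reads per 1000000 mapped reads), overlap with the stretch 1 kb either side of the transcription start site (TSS) of a protein-coding gene, and no base shared with a WT peak. They were 37.6% (34.9 to 40.5, 95% Wilson interval) of the 1140 autosomal Cxxc1-deficient promoter peaks of at most 10 RPM, and 429 of 2979 Cxxc1-deficient peaks in all. That share follows from the choice of the members and is a description.

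The study asked where the chromatin protein Cxxc1 acts in DP thymocytes, immature T cells positive for CD4 and for CD8, and how H3K4me3 looks without it. The series has 5 libraries, 1 for each combination of genotype and antibody and 1 input, and the lists used here are H3K4me3 in WT cells, H3K4me3 in Cxxc1-deficient cells and Cxxc1. WT cells came from Cxxc1 fl/fl mice without Cre, and Cxxc1-deficient cells from mice that carried the same floxed allele, with loxP sites around exons 4 and 5, and the transgene hCD2Cre, which acts in developing thymocytes and in other lymphoid cells. The mice were 3 to 4 weeks old. The sample titles call the Cxxc1-deficient libraries KO, whereas their genotype label reads Cxxc1+/-, and the titles were followed here. With 1 library for each genotype, no difference between genotypes has a replicate check, so no p-value is given, and genotype and library cannot be told apart. The intervals are taken over peaks or genes of single libraries and cover counting error only. A place that is not in a list has no deposited value, so its signal is unknown and not 0. The study's methods name input DNA and ChIP DNA of Cxxc1-deficient cells as controls of peak calling without saying which served for which H3K4me3 list, and what a missing WT peak means depends on that.

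Cxxc1 (CFP1) binds DNA that contains unmethylated CpG and is a subunit of the Setd1 complexes, which methylate H3K4. H3K4me3 marks the promoters of active genes and of many CpG islands, stretches rich in unmethylated CpG, and other enzymes, the Mll proteins, place it too. DP thymocytes rearrange the T cell receptor alpha chain with the Rag recombinase and are selected on the strength of signals that pass through Lck, Zap70 and Lcp2.

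Most of the 429 promoters were rich in CpG, and some were not. The sequences that follow are shown because CpG is what the CXXC domain of Cxxc1 recognises, and they are the promoters of the 3 strongest members at a CpG island and of the 3 strongest without one. Each runs 5′ to 3′ on the strand of the gene in mm9, from 250 bases before to 50 bases after the start of transcription nearest to the strongest window, and every CpG is in capitals. Phf23 lies at chr11:69809128-69809427 (+) and its stretch held 22 CpG, Eif3a at chr19:60866547-60866846 (-) with 35 CpG, and Mif4gd at chr11:115473391-115473690 (-) with 10 CpG. Without an island, Neil2 at chr14:63812329-63812628 (-) held 13 CpG, Fam71b at chr11:46217982-46218281 (+) held 3 CpG, and Actn4 at chr7:29734729-29735028 (-) held 0 CpG.
Phf23: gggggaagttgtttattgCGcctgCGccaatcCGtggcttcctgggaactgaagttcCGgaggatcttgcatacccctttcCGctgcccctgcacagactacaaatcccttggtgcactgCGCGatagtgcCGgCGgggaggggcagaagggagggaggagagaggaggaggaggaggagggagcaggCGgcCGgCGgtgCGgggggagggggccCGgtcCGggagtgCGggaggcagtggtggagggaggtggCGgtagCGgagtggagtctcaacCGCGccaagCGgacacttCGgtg
Eif3a: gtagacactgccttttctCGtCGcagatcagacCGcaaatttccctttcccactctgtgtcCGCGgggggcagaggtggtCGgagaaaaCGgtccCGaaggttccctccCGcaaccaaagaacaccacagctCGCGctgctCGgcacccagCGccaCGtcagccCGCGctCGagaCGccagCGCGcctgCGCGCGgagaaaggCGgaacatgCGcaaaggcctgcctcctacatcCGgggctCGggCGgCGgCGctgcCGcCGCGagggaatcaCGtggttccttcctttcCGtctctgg
Mif4gd: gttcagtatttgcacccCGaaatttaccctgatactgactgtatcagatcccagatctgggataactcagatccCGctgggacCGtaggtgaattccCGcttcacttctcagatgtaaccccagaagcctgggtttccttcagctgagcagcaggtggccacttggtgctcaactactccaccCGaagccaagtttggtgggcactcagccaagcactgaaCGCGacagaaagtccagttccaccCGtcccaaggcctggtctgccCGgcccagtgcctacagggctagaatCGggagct
Neil2: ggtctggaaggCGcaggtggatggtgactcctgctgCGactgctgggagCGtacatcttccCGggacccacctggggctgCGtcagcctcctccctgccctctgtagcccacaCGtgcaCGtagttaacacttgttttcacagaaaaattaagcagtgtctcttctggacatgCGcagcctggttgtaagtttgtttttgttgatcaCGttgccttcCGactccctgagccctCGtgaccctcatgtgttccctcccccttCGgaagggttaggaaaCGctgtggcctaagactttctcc
Fam71b: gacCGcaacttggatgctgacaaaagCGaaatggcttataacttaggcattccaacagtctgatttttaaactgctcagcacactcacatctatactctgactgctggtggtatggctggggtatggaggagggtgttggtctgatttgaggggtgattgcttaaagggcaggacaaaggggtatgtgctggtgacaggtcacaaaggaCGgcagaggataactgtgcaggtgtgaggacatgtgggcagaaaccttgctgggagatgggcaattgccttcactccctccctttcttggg
Actn4: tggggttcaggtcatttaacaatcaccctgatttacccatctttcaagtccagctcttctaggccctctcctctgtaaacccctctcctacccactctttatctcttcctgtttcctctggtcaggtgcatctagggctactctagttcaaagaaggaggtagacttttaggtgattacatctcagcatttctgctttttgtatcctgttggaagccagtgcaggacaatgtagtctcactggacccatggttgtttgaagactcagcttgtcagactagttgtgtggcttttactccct

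The observed to expected CpG ratio of these stretches was 1.09 at Eif3a, 0.735 at Phf23 and 0.436 at Mif4gd. It was 0.556 at Neil2, 0.168 at Fam71b and 0 at Actn4. Mif4gd and Neil2 thus stood in reverse order of their classes over this short stretch, since an island needed 500 bp and reached beyond the printed bases. The peaks of Neil2 and Actn4 began just upstream of the printed start and did not cover it.

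The strongest member was at Mif4gd, whose product takes part in the translation of histone mRNAs. Its peak at chr11:115470201-115475000 spanned 4800 bp and the start of transcription and summed to 5.6 RPM, or 56 tags (exact Poisson 95% interval, 42.3 to 72.7). The nearest WT peak was 44.2 kb away. Phf23, which encodes a PHD finger protein, had 4.0 RPM and 40 tags (28.6 to 54.5), and a WT peak of 3.7 RPM began 0.4 kb from its edge, inside the gene. Neil2, a DNA glycosylase of base excision repair, had 3.9 RPM at chr14:63812401-63815000, with the nearest WT peak 47.6 kb away. Eif3a, the large subunit of the translation initiation factor eIF3, had 3.8 RPM at chr19:60863801-60866800, and its nearest WT peak lay 82.6 kb away.

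Among these 4 genes a WT peak within 1 kb was listed at Phf23, whereas the other 3 had theirs at 44.2 kb or more. Tcfeb, a transcription factor of lysosomal genes, had 3.7 RPM with a WT peak of 1.7 RPM 3.4 kb away in the gene. The peak shared by Mus81, a structure-specific endonuclease, and Cfl1, the actin-severing protein cofilin, had 3.7 RPM with a WT peak of 3.2 RPM at 0.8 kb. Actn4, an actin crosslinker, had 3.4 RPM at an internal start, and the gene had a WT peak at another of its starts.

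The rest of the 15 strongest members ran from 3.4 to 3.2 RPM. Fam71b and Irgm1, an interferon-induced GTPase, had 3.4 RPM each, at 90.4 and 31.0 kb from a WT peak. Ulk3, a kinase, and Cnot1, the scaffold of the CCR4-NOT deadenylase, had 3.3 RPM each, at 6.4 and 44.4 kb. Tubb2b, a beta-tubulin, and the kinase gene Tnik had 3.3 RPM each, with a WT peak at 0.2 kb from the first and 63.8 kb from the second. Fkbp1a, which encodes the FK506-binding immunophilin, and Car12, a carbonic anhydrase, had 3.2 RPM each, at 31.4 and 12 kb. So 3 of the 15, Phf23, the Mus81 and Cfl1 peak, and Tubb2b, lay within 1 kb of a WT peak.

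As a group the members were low peaks. Their median strength was 2.0 RPM (95% interval of the median 1.9 to 2.1, quartiles 1.7 and 2.4), their median tag number 20 and their median width 1400 bp. Of the 429, 225 had at most 2 RPM and 31 had more than 3 RPM. The weakest had 1.1 RPM, and the fewest tags in a member, 10, equalled the fewest in any WT promoter peak.

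The 711 Cxxc1-deficient promoter peaks that did share bases with a WT peak had a median of 2.1 RPM (2.1 to 2.2) and 21 tags. The 5773 WT promoter peaks with no Cxxc1-deficient counterpart had 2.5 RPM and 25 tags, and the 1395 Cxxc1-deficient peaks of the same kind as the members but away from promoters had 1.9 RPM and 19 tags. Of WT promoter peaks, 23.1% were below the median member. The depth was between 9.41 and 9.47 M tags in each H3K4me3 library, as inferred from the smallest step between deposited values.

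**Figure D1:**
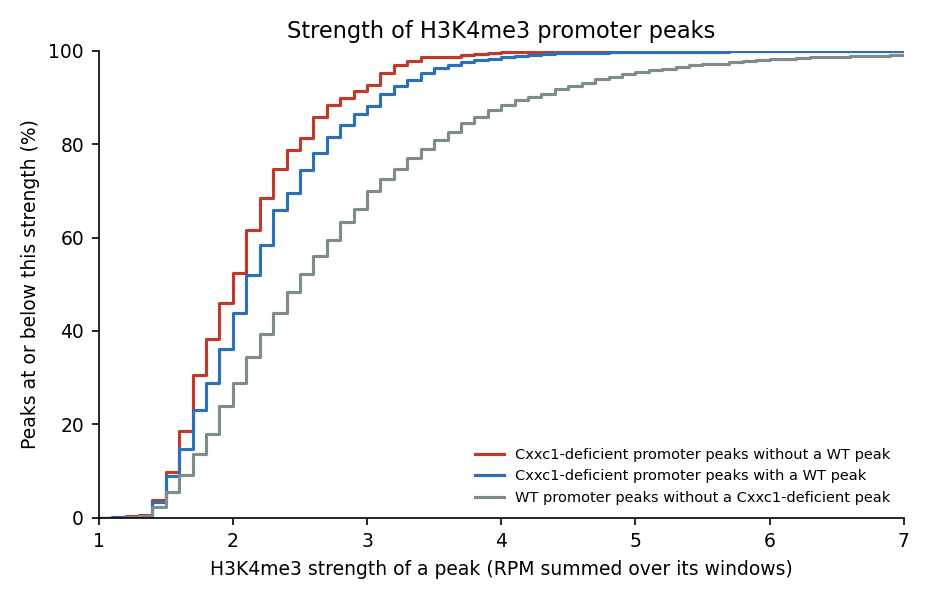
Cumulative share of promoter peaks (%) against the H3K4me3 strength of a peak (RPM summed over its windows), for Cxxc1-deficient promoter peaks without a WT peak (429), those with one (711) and WT promoter peaks without a Cxxc1-deficient peak (5773). The lines cross 50% at 2.0, 2.1 and 2.5 RPM.

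The limits of the choice were these. The 5 Cxxc1-deficient promoter peaks above 10 RPM, at 12.9 to 37.1 RPM over Trpm8, Hjurp, Ugt1a1 and Heatr7b1 on chromosome 1, each overlapped a WT peak and would not have been members at any strength limit. The strongest promoter peak just outside the criterion of no WT overlap had 5.7 RPM. At the distance limit, the farthest member edge was 980 bp from a TSS and the nearest peak left out was 1012 bp from one. The sex chromosomes and the mitochondrial chromosome held 0 further peaks that met the other criteria.

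The WT list had many more promoter peaks without a partner. Of 6499 WT autosomal promoter peaks of at most 10 RPM, 5773 (88.8%, 88.0 to 89.6) shared no base with a Cxxc1-deficient peak, beside the 37.6% in the other direction. The lists differed in length, 14237 WT and 2979 Cxxc1-deficient peaks, and a longer list leaves fewer places uncovered, so these shares are not comparable as rates of gain and loss.

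The distance to the nearest WT peak varied widely. The median was 27800 bp (22600 to 33400) with quartiles of 7600 and 70800 bp. A WT peak touched 10 members without sharing a base, 26 more had one at up to 1 kb, 42 at 1 to 5 kb, 111 at 5 to 20 kb, 167 at 20 to 100 kb and 73 beyond 100 kb. Thus 36 of 429 members had WT H3K4me3 listed within 1 kb of their edge. These 36 WT neighbours had a median of 2.55 RPM, and 21 of the 36 members were at a CpG island.

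The touching members named here show what such a case looks like. At Naca, the alpha subunit of the nascent polypeptide-associated complex, the member at chr10:127471601-127472400 had 1.4 RPM, and a WT peak of 3.7 RPM started at the next base and ran over the gene start. At the promoter shared by Hsp90b1, the chaperone of the endoplasmic reticulum, and BC030307, a member of 2.0 RPM bordered a WT peak of 2.2 RPM. At Myo15b the values were 2.5 RPM on both sides of the border. In these cases the H3K4me3 of both genotypes was listed in adjacent windows of the same promoter region.

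At the other end, Rnpc3, a protein of the minor spliceosome, had a member of 1.5 RPM with the nearest WT peak 2376 kb away. B630005N14Rik had 2.6 RPM at 1768 kb and Gtpbp10, a GTPase of the mitochondrial ribosome, had 2.1 RPM at 1755 kb. All 3 covered the start of transcription and were at a CpG island. In the mirrored direction, WT promoter peaks without a Cxxc1-deficient peak had a median distance of 121600 bp to the shorter Cxxc1-deficient list, and 55.1% of them lay beyond 100 kb, against 17% of the members.

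**Figure D2:**
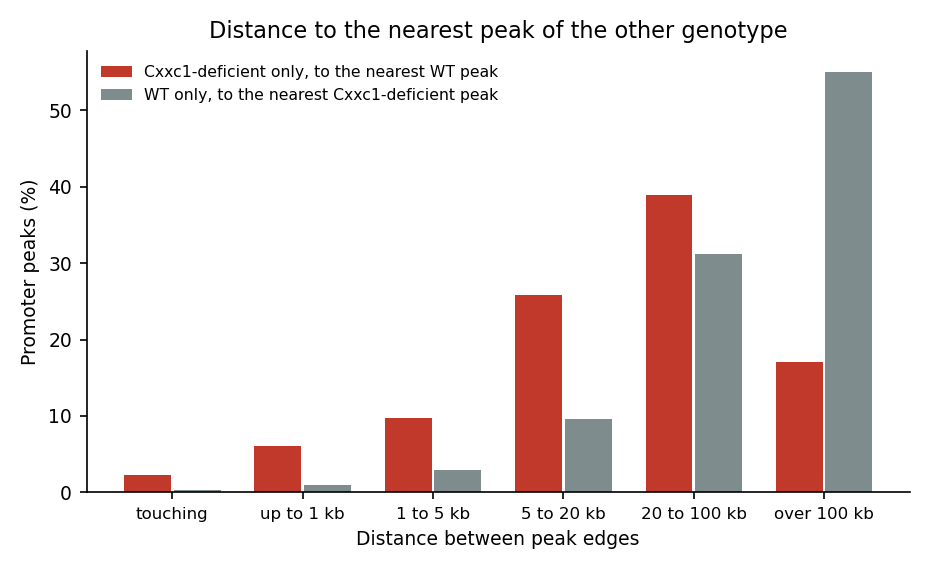
Share of promoter peaks (%) in classes of distance between peak edges, from the 429 Cxxc1-deficient promoter peaks without a WT peak to the nearest WT peak and from the 5773 WT promoter peaks without a Cxxc1-deficient peak to the nearest Cxxc1-deficient peak. The class of 20 to 100 kb holds the largest share of members (38.9%), and the class over 100 kb the largest share of the WT peaks (55.1%). The WT list has 14237 peaks and the Cxxc1-deficient list 2979.

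CpG islands were common at the members and less common than at the other promoter peaks. An island, here 500 bp or longer with a GC content of 55% or more and as many CpG as 0.65 of the number its bases predict, or more, overlapped 302 of 429 members (70.4%, 65.9 to 74.5). It overlapped 87.6% (85 to 89.8) of the 711 peaks shared with WT and 85.5% (84.6 to 86.4) of the 5773 WT peaks without a partner. The difference was -17.2 percentage points (Newcombe 95% interval -22.2 to -12.3) from the first and -15.1 points (-19.7 to -10.9) from the second. Both exceeded the counting error, and whether they would exceed the spread between animals was not tested.

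The members were far richer in islands than Cxxc1-deficient peaks away from promoters that also lacked a WT peak, of which 3.51% (2.67 to 4.61) were at an island. That difference was 66.9 points (62.3 to 71.1) and goes with the choice of promoters. Of all 21410 autosomal protein-coding genes, 56.4% held an island within 1 kb of the most 5′ start. The median observed to expected CpG ratio over 500 bp either side of the start was 0.699 (0.664 to 0.724) at members, 0.741 at peaks shared with WT, 0.745 at WT peaks without a partner and 0.563 at all first starts.

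Strength and position moved with the island share and were set beside it. Among peaks of up to 1.7 RPM, 63.4% of members and 84.8% of shared peaks were at an island. At 1.8 to 2.4 RPM the shares were 73.4% and 88.5%, and above 2.4 RPM they were 73.6% and 88.5%. Among peaks that covered a start, 77.8% of 333 members and 90.9% of 584 shared peaks were at an island, a difference of -13.2 points (-18.3 to -8.26). WT peaks without a partner were stronger as a group, with a median of 2.5 RPM, and their island share rose with strength. It was 78.8% up to 1.7 RPM, 83.2% at 1.8 to 2.4 RPM, 88.9% above 2.4 RPM and 89.1% among those that covered a start. The members had the lowest share in each of these classes.

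The 302 members at an island and the 127 without one differed in position. Those at an island covered a start in 85.8% of cases and had a median of 2.1 RPM and a median distance of 33000 bp to a WT peak. Those without an island covered a start in 58.3% and had 1.9 RPM and 15200 bp. Members without an island thus covered a start less often than those at one, although most of them did cover it.

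**Figure D3:**
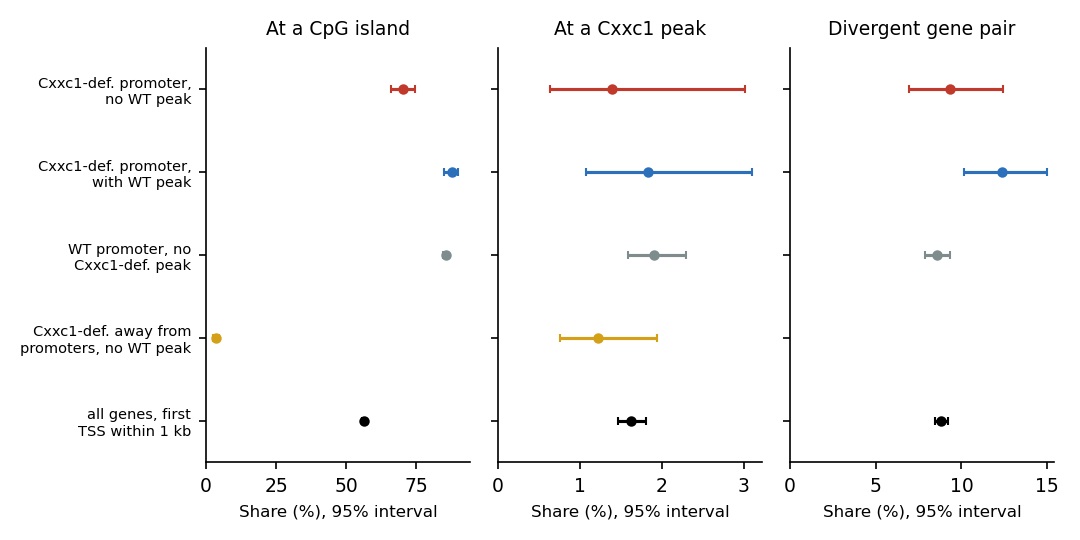
Share (%) at a CpG island, at a Cxxc1 peak and at a divergent gene pair, with 95% Wilson intervals over peaks of 1 library, for the 429 Cxxc1-deficient (Cxxc1-def.) promoter peaks without a WT peak, 3 sets for comparison and the promoters of all autosomal protein-coding genes. The last set takes 1 kb either side of the most 5′ start of each gene. The members lie at 70.4% for islands, below both other sets of promoter peaks, and at 1.40% for Cxxc1 peaks, where all intervals overlap. Divergent pairs were not counted away from promoters.

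Few members were at a listed Cxxc1 peak. The Cxxc1 list, which names no genotype, held 4352 peaks, and 6 of 429 members (1.40%, 0.643 to 3.02) overlapped one. The share was 1.83% at peaks shared with WT, 1.91% at WT peaks without a partner and 1.63% within 1 kb of the most 5′ start of all genes. The difference between members and shared peaks was -0.430 points (-1.91 to 1.36) and that from WT peaks without a partner -0.507 points (-1.36 to 1.14), so none was detectable with these numbers, and larger shares by up to 1.36 points remain within the interval.

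The 6 members at a Cxxc1 peak were these. Entpd4, a nucleotidase of the Golgi and lysosome, had 2.8 RPM of H3K4me3 under a Cxxc1 peak of 4.5 RPM. Thra, thyroid hormone receptor alpha, had 2.4 RPM under 1.8 RPM of Cxxc1, and Sec14l1 had 2.3 RPM under 3.7 RPM. Col15a1, a collagen chain, had 2.3 RPM under 1.8 RPM and was the only member of the 6 without a CpG island. The promoter between Mapk1ip1 and Ppp2r2d, a regulatory subunit of protein phosphatase 2A, had 2.1 RPM under 4.2 RPM, and Prpf6, a splicing factor, had 1.5 RPM under 2.1 RPM. Each of these values comes from a single library and the antibodies differ, so the RPM of H3K4me3 and of Cxxc1 are not on a common scale.

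Within a wider reach, 80 of the 480 genes with a member (16.7%, 13.6 to 20.3) had a Cxxc1 peak in the gene or up to 10 kb upstream. The share was 16.2% (13.9 to 18.9) for 831 genes with a shared peak and 11.6% for all autosomal genes.

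The listed windows of the members lay around the start of transcription. This follows from the choice of promoter peaks and of the start nearest to the strongest window, and is a description. At the start itself 64.6% (59.9 to 69.0) of members had a listed window, beside 64.4% of shared peaks and 79.7% of WT peaks without a partner. At 1 kb upstream the members had 20.5% and at 1 kb downstream 26.6%. The strongest window was downstream of the nearest start in 258 of 429 members (60.1%, 55.4 to 64.7), in 56.1% of shared peaks and in 61.1% of WT peaks without a partner. It was within 500 bp of the start in 55.9% of members, 58.5% of shared peaks and 70.2% of WT peaks without a partner.

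The peak covered a start in 333 members (77.6%, 73.4 to 81.3), which was 10.8 points lower than in WT peaks without a partner (difference -10.8, -15.0 to -7.00) and differed from shared peaks by -4.52 points (-9.46 to 0.230). Divergent gene pairs, which share a promoter between them, were at 40 members (9.32%), with differences of -3.05 points (-6.61 to 0.780) from shared peaks and 0.750 points (-1.77 to 3.95) from WT peaks without a partner.

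**Figure D4:**
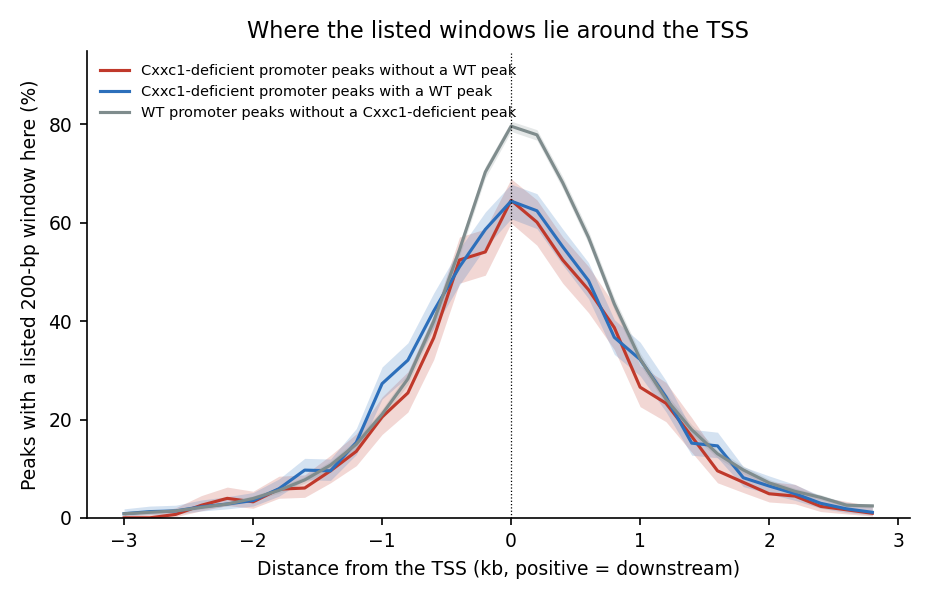
Share of peaks (%) with a listed 200-bp window against distance from the nearest TSS (kb, positive is downstream), with 95% Wilson bands, for the 429 Cxxc1-deficient promoter peaks without a WT peak, the 711 with one and the 5773 WT promoter peaks without a Cxxc1-deficient peak. The first lines peak at 64.6% and 64.4% and the third at 79.7%.

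Short motifs known from promoters were counted in the 300 bases around the start, on both strands. For peaks this was the start nearest to the strongest window, and for all promoters the most 5′ start of each gene. The 2 are not the same kind of start. The ETS core CCGGAAG was in 15.9% (12.7 to 19.6) of members, 16.0% of shared peaks and 16.2% of WT peaks without a partner, against 11.1% of all promoters. The TATA box core TATAAA was in 4.66% (3.04 to 7.09) of members, 5.49% of shared peaks and 5.23% of WT peaks without a partner, against 13.5% of all promoters. The NRF1 motif GCGCATGC was in 3.73% (2.31 to 5.97) of members and 6.89% (5.25 to 9.0) of shared peaks, in 4.57% of WT peaks without a partner and in 3.40% of all promoters. YY1 (AAGATGGCG) was in 3.50% of members, 3.09% of shared peaks and 1.83% of all promoters. CRE (TGACGTCA) was in 3.50%, 3.94% and 2.33% of these, and CCAAT in 37.1%, 40.8% and 37.6%. Within the members the ETS core was in 20.9% of those at an island and 3.94% of those without one. Of the promoters printed above, that of Phf23 held a CCAAT box and the other 5 held none of the 6 motifs. A match of letters is a description and no evidence of binding.

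By gene, the members touched 480 of 21410 autosomal protein-coding genes (2.24%), beside 6950 genes (32.5%) with a WT promoter peak. Of the 480, 297 (61.9%) had more than 1 annotated start, against 46.7% of all genes. In 67 of them (14.0%, 11.1 to 17.3) a WT peak was listed within 1 kb of a start of the same gene. That start could be another one or, as at Naca, the start of the member itself. In 83 more (17.3%, 14.2 to 20.9) a WT peak was listed elsewhere in the gene. For 330 genes (68.8%, 64.5 to 72.7) no WT peak was listed at a start or in the gene.

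A listed WT peak at the promoter was more usual in genes of T cells than in markers of other cells. Of 49 T cell and thymocyte genes, 31 (63.3%) had a WT promoter peak, among them Cd8a, Cd8b1, Zap70 and Lck. So did 2 of 14 B cell, 3 of 18 myeloid, 2 of 10 erythroid and 5 of 14 thymic epithelium markers, beside 32.5% of all genes. Members were at 0 of 14 B cell, 0 of 18 myeloid and 0 of 14 thymic epithelium markers, and at 1 of 10 erythroid markers, the erythropoietin receptor gene Epor (1.9 RPM). Over all genes 2.24% had a member, so lists this short would hold few or none in any case. A chromatin mark does not count cells, and the part of other cells in the members was not tested beyond these counts.

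Members were at 5 of the 49 T cell genes (10.2%, beside 2.24% of all genes), and this list was chosen with earlier results of these data known. Cxxc1-deficient promoter peaks of any kind, with or without a WT peak, were at 15 of the 49 (30.6%, beside 6.10% of all genes). The higher share was thus not particular to the members. Rag1, a subunit of the recombinase, had 1.7 RPM and 17 tags (9.90 to 27.2) at chr2:101488001-101489200, downstream of the start, with the nearest WT peak 147.6 kb away. This peak did not cover a start and also lay within 1 kb of a start of B230118H07Rik, so the gene that the mark belongs to cannot be told apart. No WT promoter peak was listed for Rag1, although DP thymocytes are known to express this gene.

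S1pr1, Lcp2 and Gata3 had 1.6 RPM each, close to the weakest listed peaks. S1pr1, the receptor that guides mature thymocytes out of the thymus, had 1.6 RPM and 16 tags at chr3:115416601-115418400, at a CpG island, with the nearest WT peak 291.6 kb away. Lcp2, the adaptor SLP-76, had 1.6 RPM at chr11:33947801-33949000, downstream of its start, and a WT peak of 2.2 RPM elsewhere in the gene. Gata3, a transcription factor of T cell development, had 1.6 RPM at chr2:9810401-9811600. Gata3 also had WT peaks of 1.8, 3.4 and 1.9 RPM in the gene and a Cxxc1-deficient peak at another start that did overlap WT. Rag1 and S1pr1, by contrast, had no WT peak at a start or in the gene. By strength these 4 members ranked from 320 to 356 of 429.

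**Figure D5:**
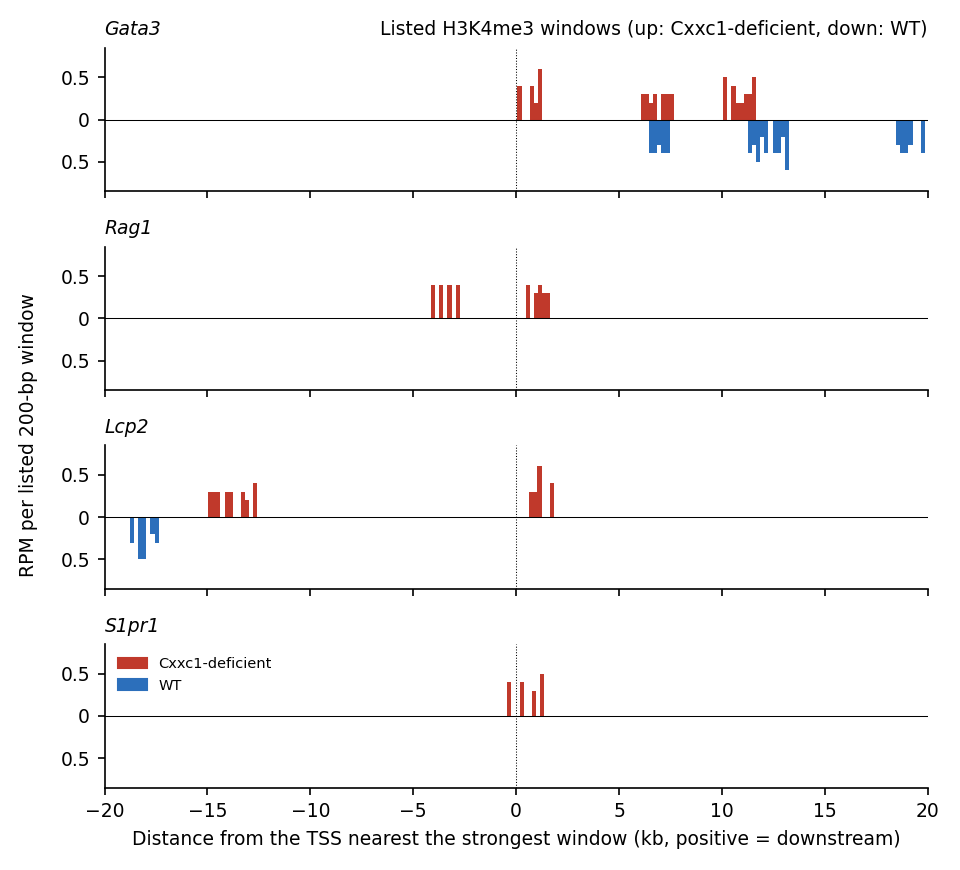
Listed H3K4me3 windows (RPM per 200-bp window) within 20 kb of the start of transcription nearest to the strongest window of the member at 4 T cell genes, with Cxxc1-deficient windows upward and WT windows downward and distance in kb on the horizontal axis. WT windows are listed within 20 kb at Gata3 and Lcp2, and none at Rag1 or S1pr1.

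Neighbouring members within 20 kb of each other formed 6 pairs, among them Ulk3 and Cplx3 at 12.8 kb and a pair at separate starts of Lmna, the gene of lamin A and C, at 5.2 kb. By chromosome the members ran from 1.24 per 100 genes on chromosome 10 to 3.04 on chromosome 19. Their share of Cxxc1-deficient promoter peaks of up to 10 RPM was 37.6% over all autosomes. The lowest share was 25.5% on chromosome 10 and the highest 63.3% (19 of 30) on chromosome 14. These extremes rest on small numbers of peaks, and no difference between chromosomes was tested.

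The loci that the study followed, Cd8a, Cd8b1, Zap70, Lck and Bdnf, held no member. A WT promoter peak was listed at Cd8a, Cd8b1, Zap70 and Lck, and a Cxxc1-deficient one at Cd8a and Zap70.

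Genes of energy metabolism and protein synthesis were read beside the 2.24% of all genes. For oxidative phosphorylation 5 of 91 genes had a member (5.49%): the complex I subunit genes Ndufv2 (2.2 RPM), Ndufb3 (2.0 RPM) and Ndufa5 (1.9 RPM), the cytochrome c oxidase subunit gene Cox6a2 (1.6 RPM), and Ndufaf2, a complex I assembly factor that shares its 2.6 RPM peak with the repair gene Ercc8. Cxxc1-deficient promoter peaks of any kind were at 13 of the 91 genes (14.3%), beside 6.10% of all genes. The peaks of Ndufaf2, Ndufb3 and Ndufa5 were at divergent promoters, where the gene that the mark belongs to cannot be told apart. Of 77 mitochondrial ribosomal protein genes 3 (3.90%) had a member, Mrpl2 (2.3 RPM), Mrpl38 (1.8 RPM) and Mrpl36 (1.4 RPM). Of 79 cytosolic ribosomal protein genes 1 (1.27%) had one, Rps3 (2.0 RPM), and 46 (58.2%) had a WT promoter peak, beside 32.5% of all genes. None of 41 proteasome subunit genes had a member, and 20 (48.8%) had a WT promoter peak. With 2.24% of all genes at a member, lists of this size would hold few or none in any case.

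Members were also counted in large gene families, beside the 2.24% of all genes. Zinc finger genes named Zfp had 6 of 362 (1.66%), the strongest of them Zfp219 (2.7 RPM), Zfp451 (2.4 RPM) and Zfp191 (2.3 RPM). Solute carriers had 7 of 343 (2.04%), led by Slc5a6 (2.6 RPM), Slc9a2 (2.3 RPM) and Slc41a3 (2.1 RPM). Of 67 histone genes 2 had a member, Hist1h1e and Hist1h2be, and both shared 1 peak of 1.8 RPM. Olfactory receptor genes, which are largely silent outside the nose, had members at 0 of 1106 and a WT promoter peak at 1.

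Developmental transcription factors had members at 6 of 172 genes (3.49%). The promoter region of Irx5, shared with 4933436C20Rik, had 3.2 RPM, with a WT peak of 1.6 RPM at 2.8 kb. Foxb1 had 2.6 RPM at 250.6 kb from a WT peak, and Sox9 had 2.5 RPM upstream of its start at 202.6 kb. These 3 members were at a CpG island.

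The remaining lists gave 1 or 2 genes each. Dpy30, a subunit found in both Setd1 and Mll complexes, was the only 1 of 21 H3K4 methylation and demethylation genes with a member. That member had 2.6 RPM and 26 tags (17 to 38.1), and the nearest WT peak, of 3.3 RPM, was 19.8 kb away. Of 24 p53 targets, Fas, the death receptor, and Pmaip1, the BH3-only protein Noxa, had members of 1.9 RPM each, and Pmaip1 was also the only 1 of 22 Bcl2 family genes. Among 27 interferon-induced genes, Gbp3 had 1.6 RPM and Ifit1 had 1.4 RPM, and neither was at a CpG island. Of 23 genes of the unfolded protein response and stress, only Hsp90b1 had one, the member that touched a WT peak. Of the 19 lists, 5 had no member, 5 had 1 gene and 11 had a share above the 2.24% of all genes. No list was tested against all genes, and these counts are a description.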

How the data were processed

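The submitters' processing notes name CASAVA 1.8.2 and SICER 1.1 and the build mm9. Per the study's methods, uniquely mapped reads went into peak calling at a set false discovery rate, and the controls were input and the ChIP DNA from Cxxc1-deficient cells. Which of these was used for each H3K4me3 list, the aligner and the treatment of duplicates are not given in the sources used here, and the called regions depend on all of them. The values deposited by the authors are RPM at 1 decimal for every 200-bp window inside a called region, and each list came from 1 library. Rounding lowers the sum over low windows, so tag numbers, inferred per window from the value of 1 tag (99.9% of windows allowed 1 number), are given beside RPM.

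Windows were joined across gaps of up to 2 windows. Strength is the sum of RPM over a peak, overlap is at least 1 base, and distance runs from edge to edge. Genes are protein-coding transcripts of GENCODE vM1 on mm9 (21410 autosomal genes), and CpG islands (20435) and sequences were read from the same assembly. Work was done in Python 3.11.15 with numpy 2.4.6, pandas 2.3.3 and scipy 1.17.1, and the 429 members were checked with bedtools 2.31.1. Tested on simulated data, 200 of 200 planted promoter peaks without a WT peak were found. This checked the code and not how reliably weak peaks are listed.

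Groups came from the sample titles, with 1 library each, so no test was run. Named genes are those at the 15 strongest members, at members with a Cxxc1 peak, in the gene lists (at most 3 for lists with over 5 members), at the 3 nearest to and 3 farthest from a WT peak, and the study's loci, plus the pairs of neighbouring members, which were chosen after their values were seen. The members and the gene lists were chosen with earlier results of these data known. A further gene is not reported here. The Cxxc1 ChIP of Cxxc1-deficient cells and the input were not analysed here. Alternatives covered joining, promoter width, overlap, strength, the choice of start and the definition of islands. Those for the difference in island share and for peaks that cover a start were chosen after seeing the data.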

Additional observations from a re-analysis of the deposited data

How the results depend on the processing

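No paired analysis was possible because each genotype had 1 library. For 9 results, 77 values under alternative settings were computed: 58 moved by less than their counting interval (or, for counts, 1.5 times), 19 moved further and none turned direction. With no missing window allowed in joining, there were 1229 members (51.4% of promoter peaks) of median 0.6 RPM at 9.4 kb from WT and over 801 genes, 52.6% were at an island and the difference from shared peaks was -28.97 points. By its construction this setting splits peaks into unbroken runs. A promoter of 2 kb either side gave an island share of 62.5% and a difference of -23.3 points, smaller islands of at least 200 bp gave 83.5% and -10.4 points, the most 5′ start of each gene gave 75.7%, and peaks that cover a start gave 77.8%. Counting WT overlap of under 50% of the shorter peak as none gave 43.95% of promoter peaks at 17 kb. The stronger 50% of the Cxxc1-deficient list gave 232 members (33.8%) of median 2.3 RPM and 260 genes. The difference in island share stayed below 0, with its interval, under each setting run. With a median of 20 tags the members lay close to the weakest listed peaks, and 1 library per genotype gives no measure of how often such peaks would be listed again.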
